A study of Homo sapiens with 6 samples.

Results

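TXNIP, ARRDC4, ARRDC3, MLXIP and MLX form a small set of glucose-linked genes. They are 3 alpha-arrestins, a transcription factor that senses sugar phosphates (MLXIP) and its dimer partner (MLX). They were taken by gene symbol from a table of 17104 genes, and all 5 had a row. The data are RNA-seq read counts from HBMEC, labelled as a human brain endothelial cell line, in 2 groups of 3 libraries. The first group followed oxygen-glucose deprivation and reperfusion (OGD/R), in which oxygen and glucose are withdrawn from the culture and then restored, and the second was the control in normal culture. The group of each library is known only from OGD or CON in its title, and the duration of each phase is not stated in those labels. No label tells whether the 3 libraries of each group are separate cultures, so the spread between them, and every p-value, may be technical.

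MLXIP encodes MondoA and MLX its dimer partner. When glucose 6-phosphate accumulates, the dimer enters the nucleus and binds carbohydrate response elements, of which those of TXNIP and ARRDC4 are the best known targets. TXNIP binds reduced thioredoxin and helps to remove glucose transporters from the cell surface, and ARRDC4 also lowers glucose uptake. ARRDC3 is the related adaptor that directs membrane proteins such as integrin beta4 to ubiquitin ligases and endocytosis. TXNIP messenger RNA is known to drop quickly when glucose is withdrawn, which makes the set a natural question for cells that have lost and regained glucose.

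The upstream sequence of TXNIP and ARRDC4 is shown because these are the best known target genes of the dimer. The 250 bases before and 50 after each annotated start were taken from RefSeq (GRCh38.p14), which had windows for all 5 genes. Both strands were searched for the E-box CACGTG, for a strict pair of 2 E-boxes with 5 bases between them, and for a relaxed pair, 2 copies of CACGNG in the same orientation with 5 bases between them. The relaxed pair also matches any strict pair, and a strict pair holds 2 E-boxes. Capitals mark the match, which in TXNIP is the relaxed pair and in ARRDC4 the E-box. The TXNIP stretch is chr1:145996610-145996719 on the minus strand, and the ARRDC4 stretch is chr15:97960463-97960572 on the plus strand.
TXNIP: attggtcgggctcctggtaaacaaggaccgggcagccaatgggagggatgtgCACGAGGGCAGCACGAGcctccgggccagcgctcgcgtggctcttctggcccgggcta
ARRDC4: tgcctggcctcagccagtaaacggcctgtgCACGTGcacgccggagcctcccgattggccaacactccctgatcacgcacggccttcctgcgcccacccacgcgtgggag

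The relaxed pair in TXNIP begins 88 bases before the start, in 1 of the 2 windows of the gene. Only 20 of 35116 windows of this length (0.057%) hold such a pair, and 2 hold the strict one. The E-box of ARRDC4 begins 210 bases before its start. MLX has an E-box too, 50 bases before its start, and 7.26% of all windows hold one. Neither the relaxed nor the strict pair was found in the windows of ARRDC4 or MLX. No match to any of the 3 motifs was found in the windows of ARRDC3 or MLXIP. Each match is a string of letters in a window and not a measured binding site.

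Total counts were 31048662 to 34484647 per library, and no pair of libraries agreed within sampling noise. Levels are given as CPM, counts relative to the library total, after scaling by TMM, a factor that evens out library composition. Of the markers checked, 9 of 12 epithelial genes had a row, with a summed level of 3049 to 3105 CPM in OGD/R and 2485 to 2711 CPM in control libraries. KRT8, KRT18 and KRT7 made up most of this sum and were higher after OGD/R, as were ELF3 and KRT17, whereas EPCAM (0.14), CDH1 (−0.28), CLDN4 (−0.25) and ESRP1 (−0.18) did not pass. For endothelial genes 4 of 12 had a row (CDH5, ESAM, EGFL7 and ROBO4), with sums of 203 to 210 CPM in OGD/R and 198 to 215 CPM in control libraries. ESAM and EGFL7, which did not pass, made up most of this sum. CDH5 was higher, at 18.1 ± 3.17 CPM in OGD/R and 10.3 ± 1.00 CPM in control libraries (edgeR adjusted p = 2.71e-07), and ROBO4 was lower, at 3.79 ± 0.83 CPM in OGD/R and 6.36 ± 0.35 CPM in control libraries (edgeR adjusted p = 0.00107). The endothelial genes PECAM1, VWF, KDR, TEK, TIE1, ERG, CLDN5 and EMCN had no row, and of the epithelial genes KRT19, CLDN7 and KRT5 had none. Rows that are present reach 10 counts in 3 or more libraries. The markers checked therefore mostly do not bear out the endothelial label. What this means for the results below was not tested.

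None of the 5 genes passed the test after OGD/R. In edgeR's quasi-likelihood test with Benjamini-Hochberg adjustment over all genes, 0 of 5 passed an adjusted p of 0.05, while 19.7% of all 17104 genes did (10.2% higher and 9.48% lower). DESeq2 and limma-voom also called 0 of 5, and 1 of the 5, MLXIP, had an unadjusted p under 0.05 in each of the 3 tests, where 30.3% of all genes did in edgeR. The median log2 fold change of the 5 was −0.05, against −0.0046 for all genes. In bulk RNA, fewer cells of a type and less RNA per cell cannot be told apart. The levels of the 5 were far apart, and the fold changes ran from −0.12 for MLXIP to 0.20 for ARRDC4.

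**Figure D1:**
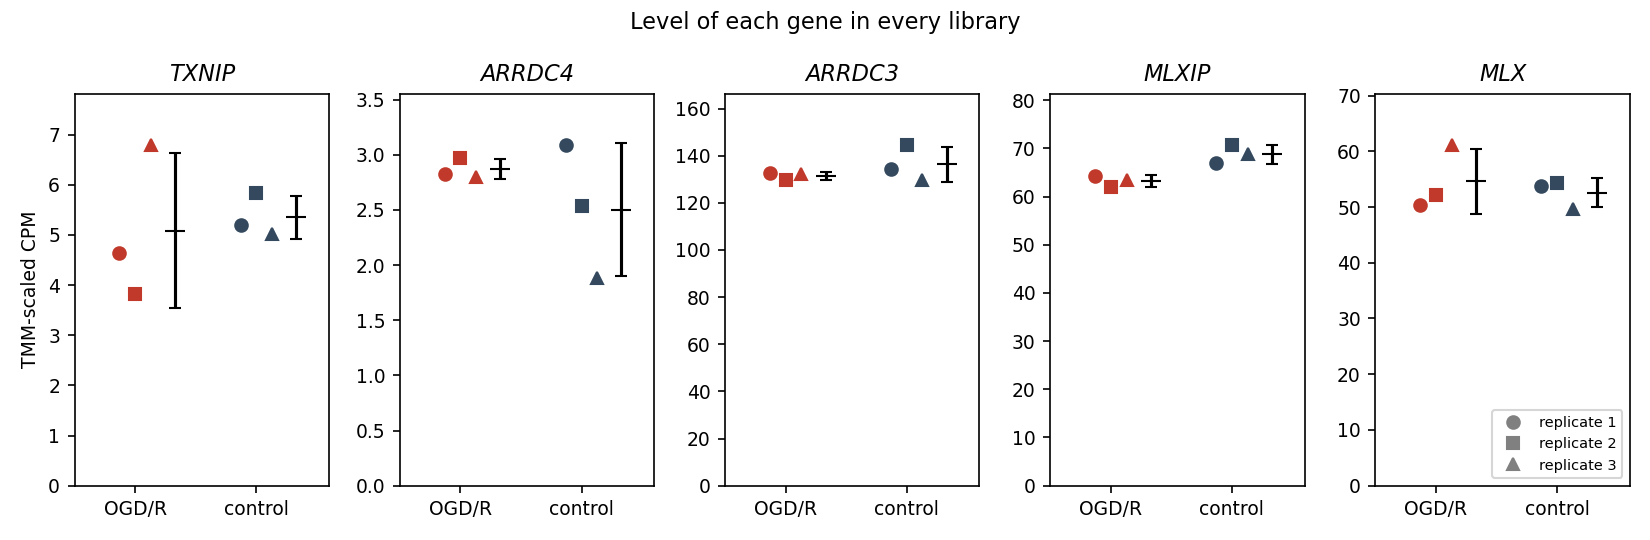
TMM-scaled CPM (linear axis from 0, a separate scale for each gene) in the 3 OGD/R and the 3 control libraries; marker shape gives the replicate number, and the black bar is the mean with 1 SD. The groups overlap in TXNIP, ARRDC4, ARRDC3 and MLX, while every OGD/R library lies below every control library in MLXIP.

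Levels between genes were compared per kilobase of each gene's longest annotated transcript (GENCODE 29), as CPM per kb. ARRDC3 was the most abundant, at 31.4 ± 0.41 CPM per kb in OGD/R and 32.5 ± 1.81 in control libraries (mean ± SD, n = 3 each). MLX followed at 21.1 ± 2.24 CPM per kb in OGD/R and 20.3 ± 0.99 in control libraries. MLXIP had 7.51 ± 0.14 CPM per kb in OGD/R and 8.17 ± 0.23 in control libraries. Both glucose-induced arrestins were scarce by comparison. TXNIP had 1.74 ± 0.53 CPM per kb in OGD/R and 1.83 ± 0.15 in control libraries. ARRDC4 was the lowest, at 0.704 ± 0.022 CPM per kb in OGD/R and 0.615 ± 0.148 in control libraries. The order was the same in each library group, and the libraries of neighbouring genes in this order did not overlap. It was also the same when the summed length of all annotated exons was used, which gave 27.1, 12.6, 4.75, 1.44 and 0.659 CPM per kb over the 6 libraries. By the first measure TXNIP stood at percentile 31.2 and ARRDC4 at percentile 17.9 of the genes in the table, against percentile 87.9 for ARRDC3.

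MLXIP (ENSG00000175727), the glucose-sensing partner of the dimer, had 64.4, 62.0 and 63.4 CPM in OGD/R replicates 1, 2 and 3, against 66.9, 70.8 and 68.8 CPM in control replicates 1, 2 and 3. All OGD/R libraries were below all control libraries, a separation that 33% of all genes showed in one direction or the other and 16.6% showed with OGD/R below. The log2 fold change was −0.12 ± 0.06 (SE, 95% interval −0.23 to −0.01), with an edgeR adjusted p of 0.120 and an unadjusted p of 0.0322. MLXIP therefore did not pass, and its interval reaches 0.851 times the control level. With scaling by median ratios (RLE) or by the upper quartile the values were −0.12 and −0.11, and neither passed (adjusted p 0.127 and 0.151). With total counts alone as the scale the value was −0.15 and the adjusted p 0.0450, while the median of all genes moved too, to −0.035. After a smooth trend on transcript length and GC content had been removed from each library, it was 0.02 with an adjusted p of 0.817, and the range over all alternatives was 0.0450 to 0.817. MLXIP has the longest transcript of the 5, at 8427 nucleotides, against 2586 to 4188 for the others. It also has the highest GC content, at 57.9% against 37.6% to 51.8%. Length and GC were not tested apart.

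MLX (ENSG00000108788), the partner that MondoA needs for DNA binding, had 50.3, 52.2 and 61.2 CPM in OGD/R replicates 1, 2 and 3, and 53.9, 54.3 and 49.6 CPM in control replicates 1, 2 and 3. The groups overlapped, with OGD/R replicate 3 above all other libraries. The log2 fold change was 0.05 ± 0.07 (95% interval −0.08 to 0.19, edgeR adjusted p = 0.635). Without OGD/R replicate 3 it was −0.04, so 1 library set the sign. The exons of MLX share 770 bases (18.1%) with PSMC3IP, and it is not stated whether the counting used the strand of the reads. PSMC3IP itself had a value of 0.10 ± 0.11 (adjusted p = 0.629).

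The messenger RNA of the dimer partners was compared as the log2 ratio of MLXIP to MLX counts within each library, which does not depend on library scaling. Protein was not measured, so this ratio is not the balance of the dimer itself. It is a ratio of reads, not corrected for length, and per kb MLX stood above MLXIP in both groups. Nor was it computed after the length and GC correction, which put both MLXIP and MLX at a log2 fold change of 0.02. The ratio was 0.35, 0.25 and 0.05 in OGD/R replicates 1, 2 and 3, and 0.31, 0.38 and 0.47 in control replicates 1, 2 and 3. OGD/R replicate 1 lay inside the control range, and the other OGD/R libraries lay below it. The difference was −0.17, with p = 0.20 in an exact two-sided permutation test (adjusted p 0.40 over 3 ratios). With 3 libraries against 3 this test cannot give a p below 0.10.

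TXNIP (ENSG00000265972), the thioredoxin-binding arrestin, had 4.64, 3.82 and 6.80 CPM in OGD/R replicates 1, 2 and 3, against 5.20, 5.84 and 5.01 CPM in control replicates 1, 2 and 3. The OGD/R libraries lay on both sides of the control libraries, with replicate 3 the highest and replicate 2 the lowest of the 6. The mean was 5.09 ± 1.54 CPM in OGD/R and 5.35 ± 0.43 CPM in control libraries (SD, n = 3 each). The log2 fold change was −0.07 ± 0.18 (edgeR adjusted p = 0.845). Its 95% interval, −0.43 to 0.29, corresponds to 0.743 to 1.22 times the control level. The interval is the range of changes that these libraries allow, and it is not a limit of detection.

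The spread of TXNIP among the OGD/R libraries was wider than counting error. The libraries held 159, 117 and 228 TXNIP reads in OGD/R replicates 1, 2 and 3, and 170, 196 and 165 reads in control replicates 1, 2 and 3. The exact 95% Poisson interval, which covers counting error only, was 96.8 to 140 reads in OGD/R replicate 2 and 199 to 260 reads in OGD/R replicate 3. These intervals do not meet, whereas those of the 3 control libraries overlap each other. The coefficient of variation was 30.3% in OGD/R and 8.05% in control libraries. Without OGD/R replicate 2 the log2 fold change was 0.09, and without OGD/R replicate 3 it was −0.34 (adjusted p 0.276), so each of these libraries moved the value while the call stayed the same.

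ARRDC4 (ENSG00000140450), the other glucose-induced arrestin, had 2.83, 2.97 and 2.80 CPM in OGD/R replicates 1, 2 and 3, and 3.09, 2.53 and 1.88 CPM in control replicates 1, 2 and 3. Here the OGD/R libraries were close together and lay within the control range. The log2 fold change was 0.20 ± 0.23 (95% interval −0.26 to 0.66, edgeR adjusted p = 0.622). The interval is the widest of the 5 genes and reaches 1.57 times the control level, and the gene had 62 to 101 reads per library. Without control replicate 3 the value was 0.03, and without control replicate 1 it was 0.38.

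TXNIP was highest in OGD/R replicate 3 and ARRDC4 in control replicate 1. The log2 ratio of TXNIP to ARRDC4 was 0.71, 0.36 and 1.28 in OGD/R replicates 1, 2 and 3, and 0.75, 1.21 and 1.41 in control replicates 1, 2 and 3. The difference of −0.34 had an exact permutation p of 0.40 (adjusted p 0.40), with overlapping groups. The log2 ratio of TXNIP to TXN, its thioredoxin partner, was −5.51, −5.98 and −5.01 in OGD/R libraries and −5.06, −5.05 and −5.09 in control libraries. These are ratios of reads, not corrected for length. The control values were nearly the same, while OGD/R replicate 3 lay above them and the other OGD/R libraries below. The difference was −0.44 (exact permutation p = 0.40, adjusted p 0.40).

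ARRDC3 (ENSG00000113369), the receptor adaptor, had 133, 129 and 132 CPM in OGD/R replicates 1, 2 and 3, and 134, 145 and 130 CPM in control replicates 1, 2 and 3. The groups overlapped, and control replicate 2 stood highest. The log2 fold change was −0.05 ± 0.05 (95% interval −0.14 to 0.04, edgeR adjusted p = 0.499). This was the tightest estimate of the set, at 0.904 to 1.03 times the control level, with 3965 to 4858 reads per library. Without control replicate 2 the value was −0.0033. ARRDC3 shares 2.9% of its exon bases with its antisense gene ARRDC3-AS1, which had 0.493 CPM in OGD/R and 0.354 CPM in control libraries.

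**Figure D2:**
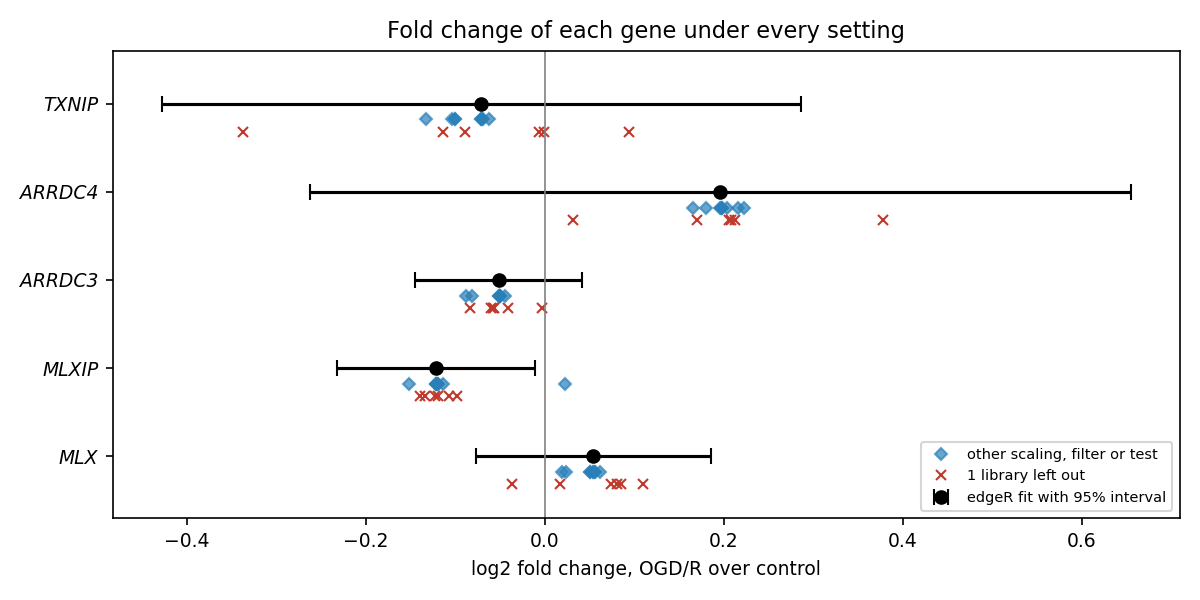
Log2 fold change of OGD/R over control for each gene: the black point and bar are the edgeR value and its 95% interval, blue diamonds the other scalings, filters and tests, and red crosses the fits with 1 library left out. The intervals of TXNIP, ARRDC4, ARRDC3 and MLX include 0, and the diamond of MLXIP to the right of 0 is the length and GC correction, at 0.02.

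The genes whose log2 CPM most resembled TXNIP over the 6 libraries were sought among 10618 other protein-coding genes averaging 5 CPM or more. WDR19, a part of the intraflagellar transport machinery, came first with a Pearson correlation of 0.98. TIGD2 (0.96), FBXW4 (0.95), YWHAH (0.94) and RETREG1 (0.94) followed, and 19 genes were above 0.9. Like TXNIP, all 5 had their highest value in OGD/R replicate 3 and their lowest in OGD/R replicate 2, which their selection by correlation largely sets. WDR19, for example, had 31.8, 29.2 and 36.4 CPM in OGD/R replicates 1, 2 and 3, and 31.4 to 33.8 CPM in control libraries. With 6 libraries and this many genes such values describe the libraries only.

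The relaxed pair of TXNIP also stands in the windows of other genes. Of 16 measured genes with it, TXNIP included, 3 rose and 1 fell, against 19.7% called among all genes, and their median log2 fold change was 0.0070. The gene that fell was GFPT1, the entry enzyme of hexosamine synthesis (−0.21, edgeR adjusted p = 0.00119). RAN, the nuclear transport GTPase, rose (0.19, adjusted p = 0.000761). P4HA1 (0.15, adjusted p = 0.0458) and PPP2R3C (0.30, adjusted p = 0.0348) also rose, but the call of P4HA1 ended without any 1 of 5 libraries (all but control replicate 1, adjusted p 0.101 to 0.143) and that of PPP2R3C without control replicate 1, 2 or 3 or OGD/R replicate 2 (0.0592 to 0.188). After the length and GC correction the values of P4HA1 and PPP2R3C were 0.07 and 0.18, and neither passed (adjusted p 0.352 and 0.254). With total counts only neither passed either (adjusted p 0.130 and 0.0615). These 4 genes were named after their values were seen.

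Around the pair of MLXIP and MLX lies the wider network of MYC and MAX, whose members bind E-boxes as dimers. Of its 11 measured genes 1 rose and 5 fell, with a median log2 fold change of −0.16 against −0.0046 for all genes. Of all genes, 10.2% were called higher and 9.48% lower. This list and those below were chosen with earlier results of these data known, so their counts beside such shares are a description only. The number of network genes called lower was 1 to 3 with 1 library left out and 2 after the length and GC correction. The gene that rose was MXD3, a MAX-binding repressor, with 37.3 ± 1.86 CPM in OGD/R and 27.1 ± 1.31 CPM in control libraries (0.46 ± 0.07, edgeR adjusted p under every alternative at most 0.000179). The repressor genes MXD1 (−0.53), MNT (−0.24) and MXD4 (−0.16), the MAX partner gene MGA (−0.16) and MYC (−0.18) fell. Each of these 5 calls was lost in some fit. MXD1 was lost without OGD/R replicate 1 (−0.42, adjusted p 0.0527). MYC was lost without control replicate 2 or 3 or OGD/R replicate 1 or 2 (−0.14 to −0.18, adjusted p 0.0560 to 0.105). MNT was lost without control replicate 1 or 3 or OGD/R replicate 2 or 3 (−0.19 to −0.23, adjusted p 0.0506 to 0.138), and MGA without control replicate 1 or 3 or OGD/R replicate 1 (−0.12 to −0.15, adjusted p 0.0754 to 0.139). MXD4 was lost without any 1 library other than OGD/R replicate 2 (−0.13 to −0.17, adjusted p 0.0528 to 0.187) and with upper-quartile scaling (−0.15, adjusted p 0.0552). After the length and GC correction MNT (−0.15), MGA (−0.05) and MXD4 (−0.11) no longer passed (adjusted p 0.138, 0.537 and 0.138). MLXIPL, which encodes ChREBP and is the paralog of MondoA, had 5.98, 3.30 and 4.92 CPM in OGD/R and 4.87, 4.02 and 5.35 CPM in control libraries, with no passing difference (adjusted p 0.999, 95% interval −0.37 to 0.38). MAX, the shared partner of the MYC side, had a value of 0.03 ± 0.07 (adjusted p 0.811).

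Genes described elsewhere as targets of the carbohydrate response factors, mostly from liver, had 11 measured members, of which 6 rose and 1 fell (median 0.18), where 10.2% of all genes were called higher and 9.48% lower. The list had 16 genes, and PKLR, G6PC1, SLC2A2, FGF21 and RGS16 had no row. FASN, fatty acid synthase, had 833 ± 13.9 CPM in OGD/R and 676 ± 18.7 CPM in control libraries (0.30 ± 0.04). The length and GC correction put FASN at 0.50. The desaturase gene SCD (0.39 ± 0.04), the elongase gene ELOVL6 (0.43 ± 0.06) and ACLY, which makes cytosolic acetyl-CoA (0.18 ± 0.04), also rose. ME1, the malic enzyme gene, rose by 0.20, but not without OGD/R replicate 2 (0.18, adjusted p 0.0615) or after the length and GC correction (0.14, adjusted p 0.0523). TKFC, a kinase of fructose metabolism, fell (−0.21 ± 0.06, edgeR adjusted p = 0.00331). KLF10, a transcription factor gene, rose by 0.16, but not with total counts only (0.13, adjusted p 0.0562), without control replicate 3 (0.14, adjusted p 0.109) or without OGD/R replicate 3 (0.13, adjusted p 0.128). The acetyl-CoA carboxylase genes ACACA (0.07, adjusted p 0.286) and ACACB (−0.08, adjusted p 0.739) did not pass. KLF10, ACACA and ACACB were named after their values were seen. These changes stand beside values of −0.07 and 0.20 for TXNIP and ARRDC4, neither of which passed.

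For glucose entry and phosphorylation, 2 of 12 measured genes rose and 2 fell (median −0.07), where 10.2% of all genes were called higher and 9.48% lower. SLC2A1, which encodes the transporter GLUT1 that TXNIP helps to internalise, had 120 ± 1.38 CPM in OGD/R and 127 ± 2.52 CPM in control libraries (−0.08 ± 0.05, edgeR adjusted p = 0.225). SLC2A6, a transporter of the same family, rose (0.48 ± 0.05), as did G6PC3, a glucose 6-phosphatase (0.30 ± 0.06). HKDC1, a hexokinase-like gene, fell (−0.36 ± 0.07). HK2, the inducible hexokinase that makes glucose 6-phosphate, fell as well (−0.29 ± 0.09), but not without control replicate 1 (−0.22, adjusted p 0.121), without OGD/R replicate 3 (−0.25, adjusted p 0.0836) or after the length and GC correction (−0.22, adjusted p 0.0626). The kinase AMPK marks TXNIP protein for degradation. Its list had 7 measured genes, which were AMPK subunit genes and STK11, the gene of a kinase upstream of AMPK. Of the 7, 1 fell and 0 rose, in DESeq2 and limma-voom as well, where 9.48% of all genes were called lower in edgeR. An unadjusted p under 0.05 in edgeR was found for 2 of the 7, against 30.3% of all genes. The gene that fell was PRKAA2 (−0.25), whose call ended without control replicate 1 or OGD/R replicate 1 or 3 (−0.17 to −0.26, adjusted p 0.0522 to 0.208) and after the length and GC correction (−0.18, adjusted p 0.0816).

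In the thioredoxin system 3 of 8 genes rose and 0 fell in edgeR, where 10.2% of all genes were called higher and 9.48% lower. An unadjusted p under 0.05 was found for 5 of the 8 and for 30.3% of all genes, while DESeq2 and limma-voom each called 3 higher and 1 lower. TXN, which encodes the thioredoxin that TXNIP binds, had 224 ± 15.6 CPM in OGD/R and 179 ± 12.1 CPM in control libraries (0.32 ± 0.05). The length and GC correction lowered this to 0.10 (adjusted p 0.0367, with 1.74e-10 to 0.0367 over all alternatives). The peroxiredoxin genes PRDX1 (0.52 ± 0.04) and PRDX3 (0.30 ± 0.05), whose products are reduced by thioredoxin, rose as well. TXNRD1, a thioredoxin reductase gene, had the only negative value of the 8 (−0.11 ± 0.04, edgeR adjusted p = 0.0578) and did not pass. Its level was 800 ± 37.8 CPM in OGD/R and 861 ± 24.7 CPM in control libraries, with overlapping groups. A lower call among the 8 also appeared on total counts only, without OGD/R replicate 2 and once length and GC were corrected for. TXNRD1 was named after its value was seen.

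None of the other arrestins passed the test. Of 5 measured genes, among them the alpha-arrestins ARRDC1 and ARRDC2 and the beta-arrestins ARRB1 and ARRB2, 0 passed in edgeR, DESeq2 or limma-voom. In edgeR 19.7% of all genes passed. An unadjusted p under 0.05 was found for 0 of the 5, against 30.3% of all genes in edgeR. Of 8 NEDD4 family ubiquitin ligases, which bind alpha-arrestins and ubiquitinate their cargo, 0 passed in any of the 3 tests, against the same 19.7% in edgeR. There 4 of the 8 had an unadjusted p under 0.05, against 30.3% of all genes. With total counts only 2 of these ligases were called lower, after the length and GC correction 2 were called higher, and with 1 library left out at most 1 was called in each direction. For cargo of ARRDC3, 2 genes were described, and both were lower after OGD/R, where 9.48% of all genes were called lower. F2R, which encodes the thrombin receptor PAR1, had 31.2 ± 0.46 CPM in OGD/R and 37.2 ± 1.48 CPM in control libraries (−0.25 ± 0.07, edgeR adjusted p = 0.00680). ITGB4, integrin beta4, fell (−0.22 ± 0.04), but not after the length and GC correction (−0.08, adjusted p 0.0615). These are transcript levels, and ARRDC3 is known to act on such cargo as protein.

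**Figure D3:**
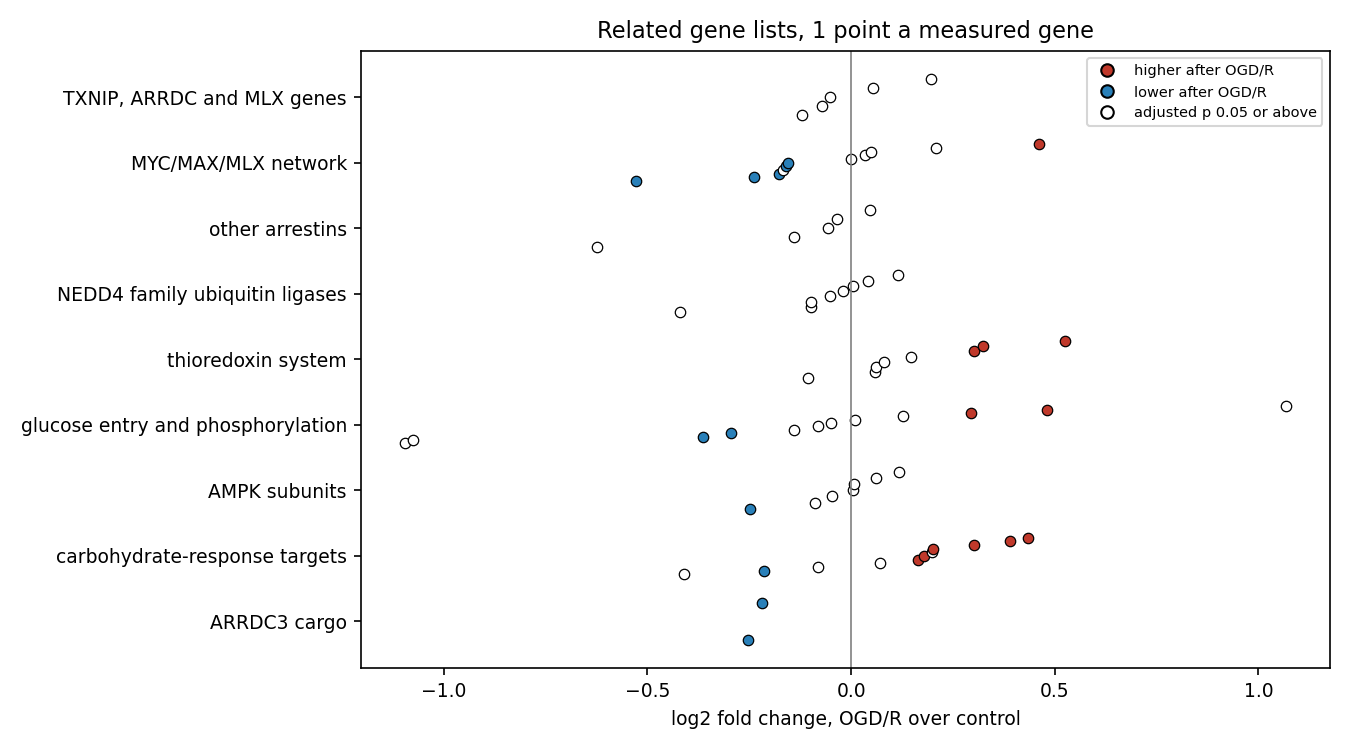
Log2 fold change of OGD/R over control for the 5 genes (top) and for the measured genes of 8 related lists, 1 point a gene; red points were higher and blue points lower at an adjusted p under 0.05, and white points did not pass. All 5 points of the top line are white. Of the 64 points below it 23 are coloured, 12 higher and 11 lower, where 19.7% of all genes were called. The genes and lists were chosen with earlier results of these data known, so these counts are a description only.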

How the data were processed

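The authors deposited raw read counts for each Ensembl gene and library. Trimmomatic, HISAT2, SAMtools, featureCounts and edgeR are named, without versions or settings, per the submitters' processing notes. These notes name GRCm38, a mouse build, although the gene IDs are human, so the build behind the counts is uncertain. Each row reaches 10 counts in 3 or more libraries, so weakly counted genes are not analysed here.

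Counts were scaled by TMM and tested with edgeR 4.0.16 (R 4.3.3) by the quasi-likelihood test with robust dispersions, two-sided, at an adjusted p of 0.05 over 17104 genes. filterByExpr removed 0 genes. Standard errors come from the fold change and its F statistic. Single ratios were tested by exact permutation. Alternatives were DESeq2 1.42.0, limma-voom (limma 3.58.1), scaling by RLE, by upper quartile or by total counts, no filter, at least 1 CPM in 3 libraries, the replicate number as a block, a length and GC trend (mgcv 1.9.3, fitted on 10848 genes), and leaving out each library. Named genes were the 5 members, up to 6 changed genes of each related list by smallest p, and 6 fixed by name. The members and lists were chosen with earlier results of these data known. 1 gene of the related lists is not reported here and was left out of their counts and plot. The search of protein sequences that had been planned was not done. The fitting was tested on simulated data, in which the changes set were larger than any found for the 5 members. It does not show whether changes of their size would be called.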

Additional observations from a re-analysis of the deposited data

How the results depend on the processing

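Of the 5 genes, 1 passed the threshold in any of 15 alternatives, namely MLXIP with total counts only (−0.15, adjusted p 0.0450). The sign turned for MLXIP after the length and GC correction (0.023), for TXNIP without OGD/R replicate 2 (0.094) and for MLX without OGD/R replicate 3 (−0.036); the cause was not tested. With 1 library left out, values ran from −0.34 to 0.09 for TXNIP, 0.03 to 0.38 for ARRDC4, −0.08 to −0.0033 for ARRDC3, −0.14 to −0.10 for MLXIP and −0.04 to 0.11 for MLX. The 3 ratios kept their sign in each such fit (−0.59 to −0.13 for TXNIP to ARRDC4, −0.68 to −0.20 for TXNIP to TXN, −0.24 to −0.09 for MLXIP to MLX). They were not computed after the length and GC correction, which moved MLXIP from −0.12 to 0.02 and TXN from 0.32 to 0.10. The numbers of genes called over the whole table were 1293 to 1840 higher and 1079 to 1527 lower with 1 library left out, against 1749 and 1621 with all 6. The split was 1383 higher and 2098 lower with total counts only.

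The replicate numbers were not shown to pair the libraries, since the correlations of same-numbered deviations were −0.00087, 0.083 and −0.0077. With the replicate number as a block, 1827 genes were higher and 1702 lower, and the values were −0.10 for TXNIP and −0.12 for MLXIP, with 0 of the 5 genes called. Besides the 5, 30 genes were followed: the called genes of the related lists, SLC2A1, MAX and MLXIPL, and GFPT1, RAN, P4HA1 and PPP2R3C, which were picked because they were called. Of their 450 values, 396 kept their direction and call, 47 lost the call and 7 turned in sign. These were 1 for MAX (−0.017 without OGD/R replicate 3) and 6 for MLXIPL (−0.030 with total counts only, −0.018 with limma-voom, −0.026 with the block, −0.10 without control replicate 2, −0.20 without OGD/R replicate 1 and −0.026 without OGD/R replicate 3). With 1 library left out MAX ran from −0.017 to 0.092 and MLXIPL from −0.20 to 0.20. Without a filter the same genes were tested, so that setting repeats the main fit and its agreement was fixed in advance. TXNIP and ARRDC4 had the fewest reads of the 5 genes, at 62 to 228 per library, so their counting error is the widest.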
